A study of Homo sapiens with 6 samples.

Results

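Oxidative phosphorylation is carried out by 5 protein complexes of the mitochondrial inner membrane. Complexes I, II, III and IV pass electrons from NADH and succinate to oxygen, complexes I, III and IV pump protons, and complex V (ATP synthase) uses the proton gradient to make ATP. Most subunits are encoded in the nucleus, translated in the cytosol and imported, while a few core subunits are encoded by mitochondrial DNA. The mRNAs of the nuclear-encoded subunits were compared here in extracellular vesicles (EVs) released by WT and CD47- Jurkat T cells. Jurkat (JK) is a human T cell leukemia line, and JinB8 (CD47-) is a Jurkat somatic mutant that lacks CD47, a cell surface receptor for thrombospondin-1.

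Members were chosen by gene symbol: NDUFA, NDUFB, NDUFC, NDUFS and NDUFV genes for complex I, SDHA to SDHD for complex II, UQCR genes and CYC1 for complex III, COX4 to COX8 genes for complex IV, and ATP5F, ATP5M and ATP5P genes for complex V. Only probe sets listed with 1 gene symbol were used, the brightest one per gene, which gave 18417 genes from 33297 probe sets. The symbols matched 79 genes after 2 pseudogenes were left out, and 1 of these was the noncoding RNA NDUFV1-DT, with a log2 difference of -0.03. The remaining 78 genes divide into 33 of complex I, 3 of complex II, 8 of complex III, 17 of complex IV and 17 of complex V. The complex IV genes include COX7A2L, which is classed as a supercomplex factor rather than a subunit. Of the 78 genes, 71 are widely expressed and 7 are tissue-restricted isoforms or copies, namely COX4I2, COX6A2, COX6B2, COX7A1, COX7B2, COX8C and ATP5MGL. NDUFC2, NDUFS5 and ATP5F1E were listed only together with other symbols and are described apart from the members. SDHB, UQCRFS1 and NDUFA4 were not analysed here.

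The 6 arrays comprised 3 of WT EVs and 3 of CD47- EVs, from JK cells with the WT CD47 genotype and from JinB8 cells cultured for 24 to 48 h in the defined medium HITES. Each array was hybridised with label made from 300 ng of total EV RNA. JinB8 is a single mutant line, so that differences from WT are differences between 2 lines. Nothing in the labels says whether the 3 replicates came from separate cultures, and the p-values measure only the spread between these samples, which may be technical.

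Values are log2 RMA values, a normalized scale on which a difference of 1 is a 2-fold change, and they are relative within each array. Fewer vesicles carrying an mRNA and less of it per vesicle cannot be told apart. The number of arrays limits the precision. As a reference for dim probe sets, 341 olfactory receptor genes, which T cells are not known to use, had a median of 5.49 and a 95th percentile of 6.79. Between any 2 arrays, r across genes lay between 0.981 and 0.989. Of 13 T cell marker genes measured, 10 had a mean above the olfactory receptor median, beside 7249 of all 18417 genes. So did 5 of 6 fibroblast and epithelial, 3 of 4 liver and 4 of 6 erythroid and platelet markers. For B cell and myeloid markers it was 2 of 4 and 2 of 6. The count therefore does not mark cell identity. Among the T cell markers, the Wnt pathway transcription factor LEF1 was the one that passed the test.

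Within the oxidative phosphorylation genes, ATP5F1B, the catalytic beta subunit of ATP synthase, and NDUFB5, an accessory subunit in the membrane arm of complex I, were higher in CD47- EVs. No member was lower, and 76 did not pass. Called here means an adjusted p under 0.05 from limma with Benjamini-Hochberg adjustment over all genes. By that rule 2.56% of the members were higher, beside 0.668% of all genes, and 0.0163% of all genes were lower. Without adjustment, at p under 0.05, 17 members were on the higher side and 1, COX7B2, on the lower side, beside 5.16% and 2.87% of all genes. With each array centred on the olfactory receptor genes 8 members were higher, beside 1.29% of all genes. With genes below the olfactory receptor median left out 4 were, beside 2.15% of the 7249 genes left, and with a variance estimated for each gene alone none passed.

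The members as a whole lay mostly above 0. The log2 difference, CD47- minus WT, was above 0 for 57 members (73.1%) and below 0 for 21, and 51.3% of all genes were above 0. Its median was 0.08 over the members, 0.0029 over all genes and -0.05 over the olfactory receptor genes. In lists described below, 69.8% of assembly factors, 67.1% of mitochondrial ribosomal protein genes and 75% of mitochondrial biogenesis regulators were above 0. So were 76.9% of T cell markers, 45.5% of tricarboxylic acid cycle genes and 28.6% of electron carriers and related genes. The share above 0 was thus not particular to the members. In 15 members every CD47- array was above every WT array, and in 1 member, COX7B2, every CD47- array was below. Such separation occurred upward in 7.3% and downward in 5.53% of all genes. Among the 864 genes above the olfactory receptor 95th percentile, which include 9 members, 66.2% had a difference above 0, 17.5% separated upward and 6.94% were called higher. Of the 8 widely expressed members above that percentile, 7 had a difference above 0, 4 separated upward and none was called higher, with a median difference of 0.18. The 63 widely expressed members below it had a median of 0.08.

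**Figure D1:**
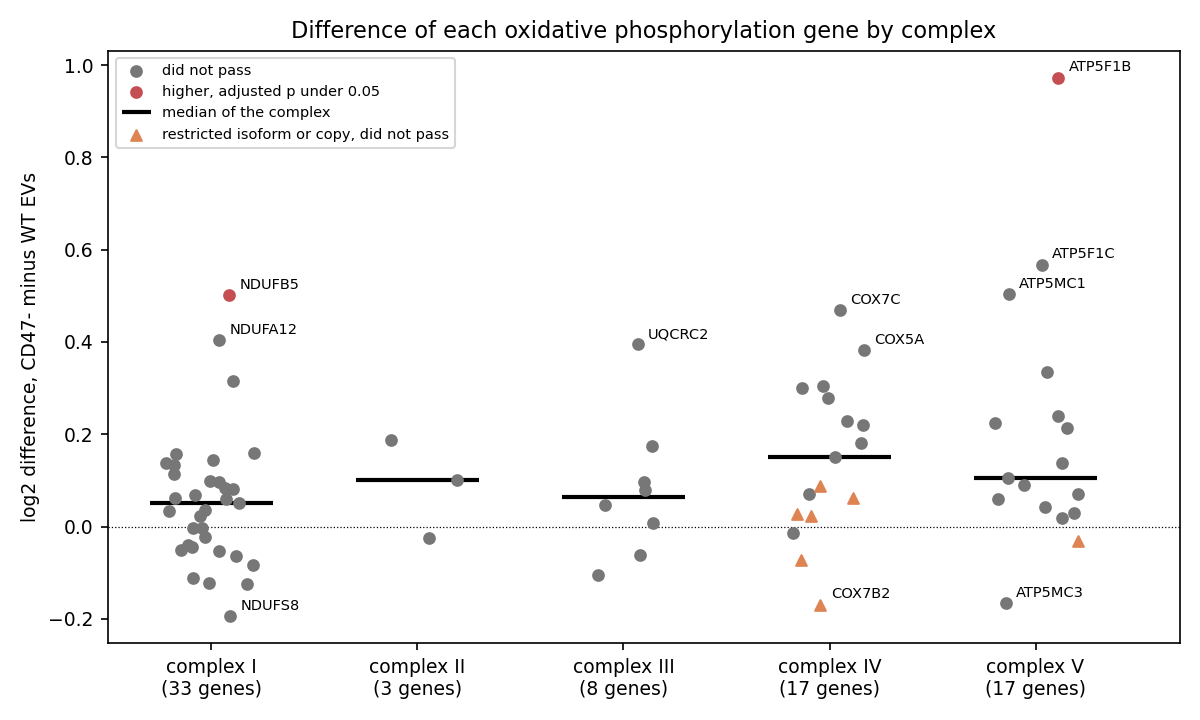
Log2 difference of CD47- minus WT EVs for each of the 78 genes, grouped by complex, with 1 point per gene and the median of each complex as a bar. ATP5F1B (0.97) and NDUFB5 (0.50) are the called genes, and the complex medians lie between 0.05 and 0.15.

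The complexes differed in how many of their genes lay above 0, and no test compares one complex with another here. Complex V had 15 of 17 genes above 0 and a median difference of 0.10. Complex IV had 14 of 17 above 0 and a median of 0.15. Complex III had 6 of 8 above 0 with a median of 0.06, and complex II had 2 of 3 with a median of 0.10. Complex I, the largest group, had 20 of 33 above 0 and a median of 0.05. Upward separation was found in 3 of 33 genes of complex I, 1 of 3 of complex II and 1 of 8 of complex III. It was found in 6 of 17 genes of complex IV and 4 of 17 of complex V, beside 7.3% of all genes. Single arrays moved the medians by over 1.5 times in complex I (0.030 without CD47- replicate 2), complex II (0.042 without WT replicate 3), complex III (0.030 without WT replicate 3, 0.038 and 0.040 without CD47- replicates 2 and 3) and complex IV (0.089 and 0.099 without CD47- replicates 1 and 3).

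**Figure D2:**
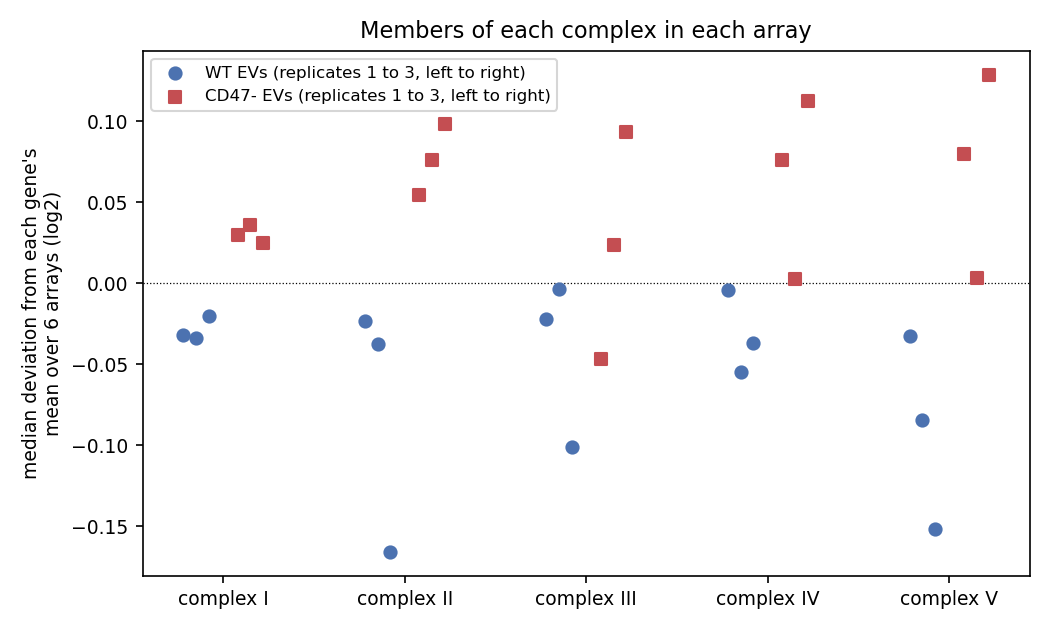
Median over the genes of each complex of the deviation from the gene's own mean over the 6 arrays (log2), with 1 point per array. The CD47- arrays lie above all WT arrays in complexes I, II, IV and V, while in complex III CD47- replicate 1 (-0.05) lies among the WT arrays.

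By array, the complex V genes had median deviations of -0.03, -0.08 and -0.15 in the WT arrays and 0.08, 0.0031 and 0.13 in the CD47- arrays. The complex IV genes were at -0.0043, -0.06 and -0.04 in WT and at 0.08, 0.0027 and 0.11 in CD47- arrays, so that CD47- replicate 2 lay closest to WT in both complexes. The WT array of replicate 3 was the lowest of its group in 36 of the 78 members, and the CD47- array of replicate 3 was the highest of its group in 36. The part of these arrays in the results was examined by leaving each out.

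ATP synthase has a soluble F1 head that makes ATP, a ring of c subunits that turns in the membrane, a peripheral stalk that holds the head still, and small membrane subunits. The 4 measured F1 genes all lay above 0, with a median of 0.40. ATP5F1B read 5.91, 5.92 and 5.70 in the WT arrays and 6.87, 6.45 and 7.14 in the CD47- arrays. All CD47- arrays were above all WT arrays, with the widest spread within the CD47- group. Its log2 difference was 0.97 (SE 0.14), a 1.96-fold higher level, with a limma adjusted p of 0.00589, and it ranked 20 from the top among 18417 genes by difference. Without WT replicate 3 the adjusted p was 0.0664 with a difference of 0.90.

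The gamma subunit gene ATP5F1C, the central shaft that turns inside the head, came next. ATP5F1C read 5.27, 5.34 and 4.81 in WT EVs and 5.88, 5.38 and 5.87 in CD47- EVs. The groups did not overlap, but CD47- replicate 2 was only just above the highest WT array. The difference of 0.57 (SE 0.15) had a limma adjusted p of 0.172 and did not pass. ATP5F1A, the alpha subunit that forms the head together with beta, had a difference of 0.24 (SE 0.10), with overlapping groups and a limma adjusted p of 0.522. ATP5F1D, the delta subunit at the foot of the shaft, was at 0.03 (SE 0.08).

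The genes ATP5MC1, ATP5MC2 and ATP5MC3, encode the same mature c subunit with different import sequences, and their mRNAs did not show the same values. ATP5MC1 read 6.98, 7.02 and 6.77 in WT and 7.21, 7.34 and 7.72 in CD47- EVs, with no overlap, and its difference of 0.50 (SE 0.12) had a limma adjusted p of 0.108. ATP5MC2 was at 0.21 (SE 0.09) with an overlap of the groups. ATP5MC3 read 5.35, 5.07 and 5.32 in WT and 5.05, 5.16 and 5.02 in CD47- EVs, a difference of -0.17 (SE 0.09, adjusted p 0.724 by limma). The within-array difference of ATP5MC1 over ATP5MC3 was larger in CD47- EVs by 0.67 (SE 0.23), with no overlap between groups. The exact two-sided permutation test gave p = 0.1, the smallest that 3 against 3 arrays allow, and 0.267 after Benjamini-Hochberg adjustment over 8 gene pairs tested. For ATP5MC1 over ATP5MC2 the change was 0.29 (SE 0.16) with overlapping groups. Its exact permutation p was 0.3, and 0.4 adjusted over the same 8 pairs.

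In the remaining parts of ATP synthase, ATP5MF, subunit f of the membrane part, read 5.23, 5.17 and 5.21 in WT and 5.56, 5.60 and 5.47 in CD47- EVs. These were tight and separate groups, with a difference of 0.34 (SE 0.07) and a limma adjusted p of 0.0771. The other 4 small membrane subunits had differences of 0.02 to 0.14. The 4 peripheral stalk genes, ATP5PB, ATP5PD, ATP5PF and ATP5PO, lay between 0.06 and 0.22, with a median of 0.10 and overlapping groups in each.

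**Figure D3:**
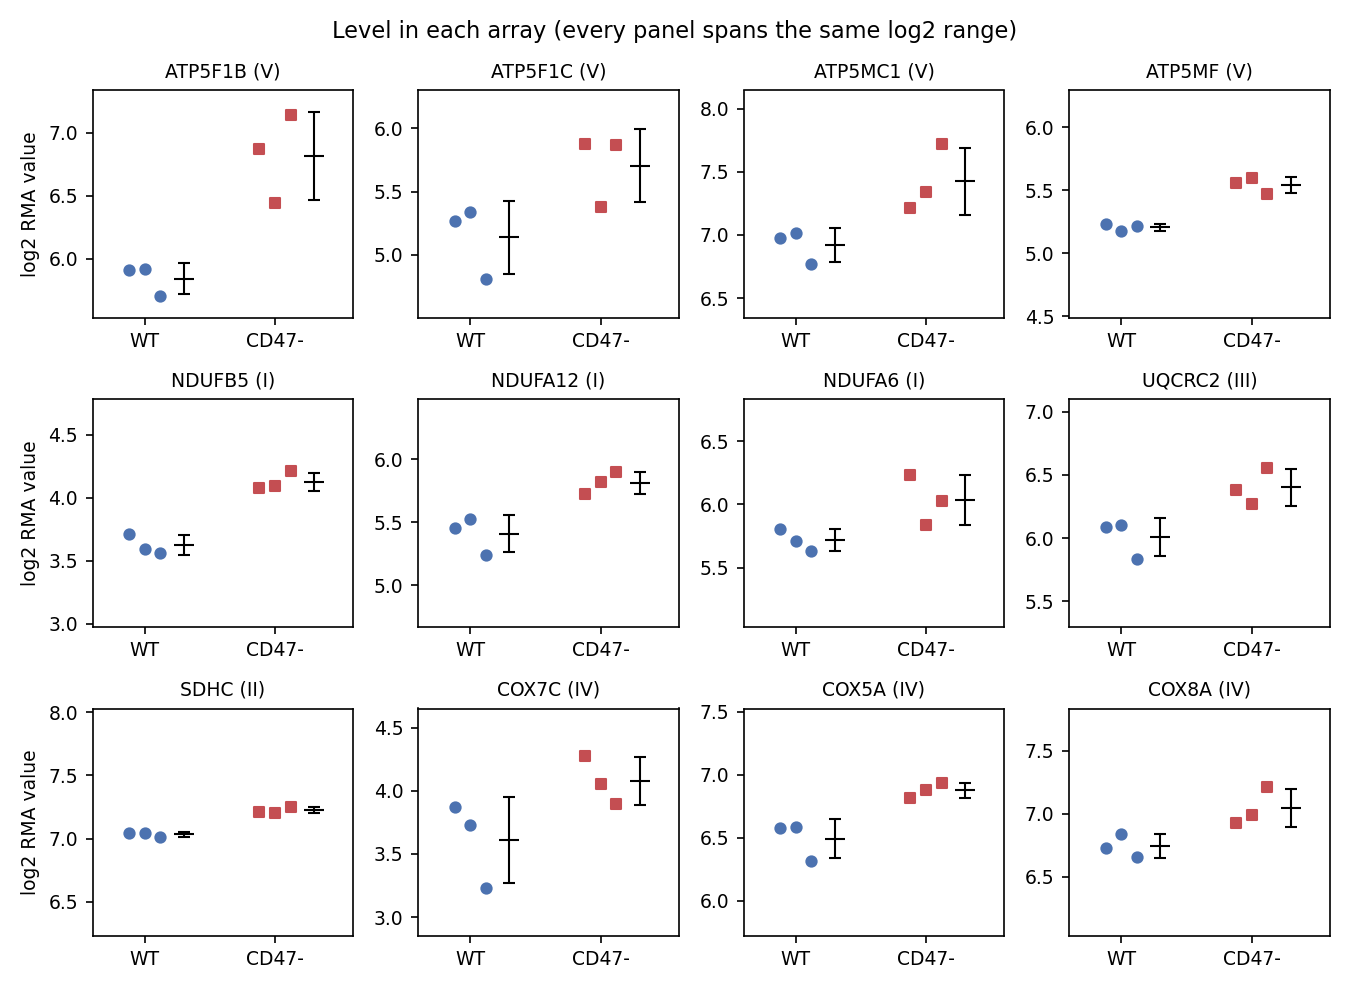
Log2 RMA values of 12 members whose WT (circles) and CD47- (squares) arrays did not overlap, with replicates 1 to 3 from left to right and the mean with its SD beside them; the complex is in parentheses and every panel spans the same log2 range. The gap between groups is widest in ATP5F1B (5.92 against 6.45). It is very small in NDUFA6 (5.81 against 5.84), ATP5F1C (5.34 against 5.38) and COX7C (3.87 against 3.90).

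Complex IV, cytochrome c oxidase, passes electrons from cytochrome c to oxygen and surrounds its mitochondrially encoded core with small nuclear-encoded subunits. None of its 17 genes was called, and 6 separated upward, beside 7.3% of all genes. COX5A, a subunit on the matrix side, read 6.58, 6.58 and 6.31 in WT and 6.81, 6.88 and 6.93 in CD47- EVs. The groups were apart, and its difference of 0.38 (SE 0.09) had a limma adjusted p of 0.0966. COX4I1, the ubiquitous form of subunit 4, had a difference of 0.31 (SE 0.10) with WT arrays from 6.41 to 6.79 and CD47- arrays from 6.83 to 6.94, and a limma adjusted p of 0.301.

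Of the small membrane subunits, COX7C had the largest difference in the complex. COX7C read 3.87, 3.73 and 3.23 in WT and 4.28, 4.06 and 3.90 in CD47- EVs, giving 0.47 (SE 0.15) and a limma adjusted p of 0.29. Its mean was above those of only 9.97% of the olfactory receptor genes. COX8A read 6.73, 6.84 and 6.66 in WT and 6.93, 6.99 and 7.21 in CD47- EVs, a difference of 0.30 (SE 0.09, adjusted p 0.262 by limma). COX6B1, COX6C and COX7A2 lay between 0.22 and 0.28 with overlapping groups, and COX5B, a zinc-binding subunit, was at -0.01.

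In complex IV, 6 subunits have a widely expressed gene and an isoform gene restricted to muscle, lung, testis or other tissues, and in each pair the widely expressed gene had the higher difference. The 11 widely expressed genes of the complex had a median of 0.23, with 10 above 0, and the 6 restricted isoforms a median of 0.02. Without the supercomplex factor COX7A2L, the 10 widely expressed subunit genes had a median of 0.25. COX4I1 was at 0.31 and COX4I2 at 0.06, COX6A1 at 0.18 and COX6A2 at 0.09, and COX6B1 at 0.28 and COX6B2 at 0.03. For the others, COX7A2 was at 0.22 and COX7A1 at 0.02, COX7B at 0.15 and COX7B2 at -0.17, and COX8A at 0.30 and COX8C at -0.07. The within-array difference of the pair separated the groups in COX7B over COX7B2 (0.32, SE 0.11) and COX8A over COX8C (0.37, SE 0.15), each with an exact permutation p of 0.1, the smallest possible, and 0.267 adjusted over the 8 pairs. In the other 4 pairs the groups overlapped, with exact permutation p from 0.2 to 0.5. The isoforms were paired after their values had been seen. COX7B and COX7B2 were both dim, with means above those of 0% and 5.57% of the olfactory receptor genes.

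**Figure D4:**
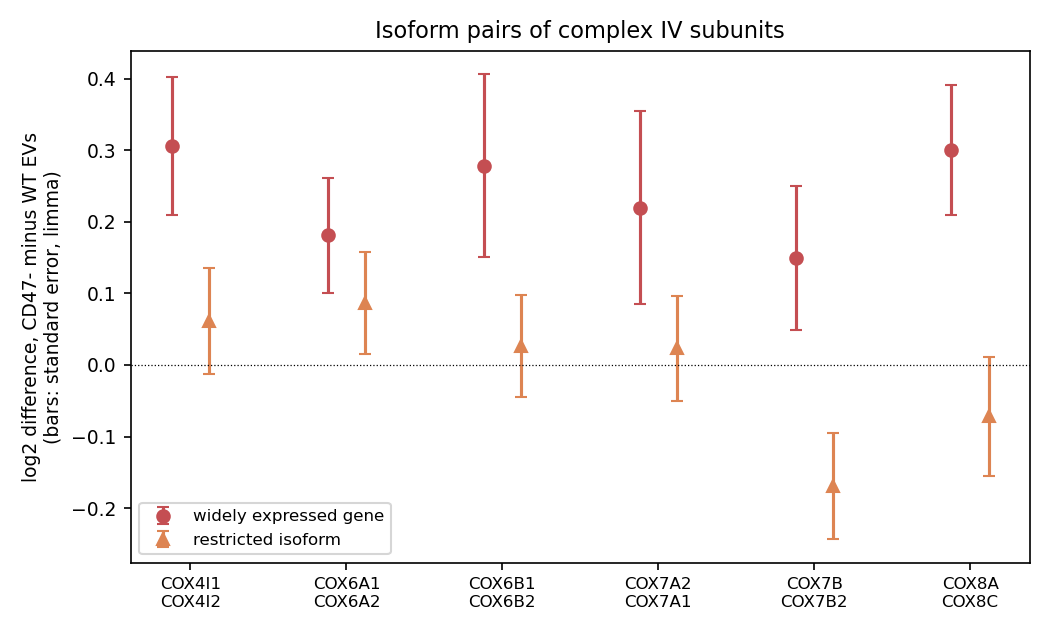
Log2 difference of CD47- minus WT EVs, with its standard error from limma, for the widely expressed gene (circle) and the restricted isoform (triangle) of 6 complex IV subunits. Every circle lies above its triangle, by 0.09 for subunit 6A to 0.37 for subunit 8.

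Most restricted isoforms were dim. Of the 6 in complex IV, 1 had a mean above the olfactory receptor median, against 7 of the 10 widely expressed subunit genes. The median level was 4.67 for the restricted isoforms and 5.89 for those subunit genes, so the pairs mostly set a dim gene against a brighter one. The exception was COX6A2, the heart and muscle form, with a mean above the olfactory receptor 95th percentile. COX6A2 read 7.08, 7.03 and 7.02 in WT and 7.12, 7.12 and 7.14 in CD47- EVs. These groups separated at a difference of only 0.09 (SE 0.07, adjusted p 0.865 by limma). COX7B2, the member that separated downward, read 3.59, 3.59 and 3.69 in WT and 3.51, 3.45 and 3.40 in CD47- EVs, with a limma adjusted p of 0.595 and a mean above those of only 5.57% of the olfactory receptor genes.

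Complex I oxidises NADH in a matrix arm and pumps protons in a membrane arm. The 6 matrix arm core genes had a median of 0.03, the 9 matrix arm accessory genes 0.06 and the 18 membrane arm accessory genes 0.06. NDUFB5 read 3.71, 3.60 and 3.56 in WT and 4.08, 4.09 and 4.21 in CD47- EVs. All CD47- arrays were above all WT arrays, the replicates lay close together, and the 1.41-fold difference (0.50, SE 0.08) had a limma adjusted p of 0.0101. The call was lost without WT replicate 3 (adjusted p 0.0735) and without CD47- replicate 3 (adjusted p 0.0629), and the mean level was above those of only 9.97% of the olfactory receptor genes.

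NDUFA12, an accessory subunit of the matrix arm, read 5.46, 5.53 and 5.24 in WT and 5.72, 5.82 and 5.90 in CD47- EVs. The groups were separate, with a difference of 0.40 (SE 0.09) and a limma adjusted p of 0.0821. NDUFA6, another matrix arm accessory subunit, read 5.81, 5.71 and 5.63 in WT and 6.23, 5.84 and 6.03 in CD47- EVs, a difference of 0.32 (SE 0.10, adjusted p 0.303 by limma). Its CD47- replicate 2 was just above the highest WT array. The next gene, NDUFB8 of the membrane arm, was at 0.16 with overlapping groups.

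Of the 6 core genes of complex I, 4 lay above 0, and none passed. NDUFV2 was at 0.13 (SE 0.09), NDUFS3 at 0.10 (SE 0.08) and NDUFS7 at 0.03 (SE 0.07). NDUFV1, the flavin-binding subunit that takes electrons from NADH, had a difference of 0.02 (SE 0.10), and NDUFS1, an iron-sulfur subunit, -0.13 (SE 0.13). NDUFS8, also an iron-sulfur subunit, read 5.56, 5.72 and 5.89 in WT and 5.71, 5.48 and 5.40 in CD47- EVs. At -0.19 (SE 0.10) it had the lowest difference of all members, with overlapping groups and a limma adjusted p of 0.717.

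Complex III passes electrons from ubiquinol to cytochrome c. UQCRC2, a core subunit, read 6.09, 6.10 and 5.84 in WT and 6.38, 6.27 and 6.56 in CD47- EVs. The groups did not overlap, and the difference of 0.39 (SE 0.10) had a limma adjusted p of 0.135. Its partner UQCRC1 was at 0.0076 (SE 0.08), and CYC1, cytochrome c1, at 0.05 (SE 0.08). The accessory subunits UQCRQ, UQCR11 and UQCR10 were at 0.18, 0.10 and 0.08, and UQCRB was at -0.10, all with overlapping groups.

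Complex II, succinate dehydrogenase, links the tricarboxylic acid cycle to the chain. SDHA, its flavoprotein, had a difference of 0.10 (SE 0.08). SDHC, a membrane anchor, read 7.05, 7.04 and 7.01 in WT and 7.21, 7.21 and 7.25 in CD47- EVs, which separated with little spread at a difference of 0.19 (SE 0.07, adjusted p 0.45 by limma). SDHD, the other anchor, was at -0.02 (SE 0.11) with overlapping groups.

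The probe sets of both anchors need a qualification. On this array the probe set numbers follow the genome, and the brightest probe sets of SDHC, SDHD, COX6A1 and NDUFV2 are numbered among genes of another chromosome than the gene's own, with all 40 neighbouring probe sets there. Each of these genes also has a probe set numbered on its own chromosome. For SDHC it read 6.42, 6.34 and 6.47 in WT and 6.75, 6.69 and 6.38 in CD47- EVs, a difference of 0.20 with overlapping groups. For SDHD the difference there was -0.13, for COX6A1 0.23 with separate groups, and for NDUFV2 0.13. With these probe sets the called members remained 2.

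Among subunits listed with further symbols, the probe set of NDUFC2 and its read-through with KCTD14 read 3.70 to 3.94 in WT and 4.15 to 4.43 in CD47- EVs. That is a difference of 0.49 without overlap, which was not tested, and all of these values are below the olfactory receptor median of 5.49. Those of ATP5F1E (the epsilon subunit), of UQCRH with its copy UQCRHL, and of NDUFS5 were at 0.17, 0.12 and 0.09, with overlapping ranges. The probe set of UQCRH alone was at -0.06. Both probe sets that list SDHA with its pseudogenes were at -0.05 and -0.02, that of the read-through with KCTD14 alone was at -0.03, and those of the read-through of ATP5MF with PTCD1 were both at 0.06.

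Many promoters of these genes are known to hold sites for NRF1, ETS-family factors and YY1, and these letters were searched in the 300 bases from 250 before to 50 after the RefSeq gene start (GRCh38.p14), on both strands. Of the 78 members, 65 had an entry and 13 did not, ATP5F1B and NDUFB5 among the latter. GCGCATGC (NRF1) was found in 12 members, 18.5%, and in 3.27% of 27305 promoters. CCGGAAGT (ETS) was found in 10 members, 15.4%, and in 4.44% of all, and AAGATGGC (YY1) in 10 members, 15.4%, and in 3.03% of all. The letters for NRF1 overlap with their own reverse complement in the run GCGCATGCGC, and such runs were counted once per promoter. Any of the 3 was present in 27 members, or 41.5%, and in 9.94% of all promoters. Of the YY1 matches, 8 of 10 in members lay after the start, as did 51.3% of those in all promoters.

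The 120 bases before the start of 5 members from complexes II to V are shown as examples of members with NRF1 letters (ATP5MC2 and ATP5F1C), ETS letters (UQCRQ and COX8A) or both (SDHD), and none of them passed the test. Capitals mark NRF1 or ETS letters on either strand, and the positions are SDHD chr11:112086753-112086872 (plus strand), UQCRQ chr5:132866522-132866641 (plus), COX8A chr11:63974500-63974619 (plus), ATP5MC2 chr12:53676084-53676203 (minus) and ATP5F1C chr10:7788057-7788176 (plus).
SDHD: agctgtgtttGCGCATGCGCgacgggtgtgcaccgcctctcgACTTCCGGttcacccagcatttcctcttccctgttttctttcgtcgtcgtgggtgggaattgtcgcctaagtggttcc
UQCRQ: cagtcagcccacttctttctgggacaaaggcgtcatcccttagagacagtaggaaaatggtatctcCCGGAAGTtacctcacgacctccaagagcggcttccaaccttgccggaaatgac
COX8A: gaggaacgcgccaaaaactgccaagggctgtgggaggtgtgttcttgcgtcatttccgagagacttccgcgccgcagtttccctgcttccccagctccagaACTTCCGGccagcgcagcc
ATP5MC2: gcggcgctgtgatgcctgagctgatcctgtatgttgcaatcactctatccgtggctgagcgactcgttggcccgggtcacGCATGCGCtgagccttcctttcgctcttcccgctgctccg
ATP5F1C: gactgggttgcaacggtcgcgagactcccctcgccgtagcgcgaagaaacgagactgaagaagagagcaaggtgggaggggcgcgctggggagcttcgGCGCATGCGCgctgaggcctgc
ATP5F1C and SDHD both hold the palindromic NRF1 run, 22 and 110 bases before the start, and had differences of 0.57 and -0.02. COX8A and UQCRQ hold ETS letters, with differences of 0.30 and 0.18, and ATP5MC2 holds NRF1 letters with 0.21. The 27 members with any of the 3 motifs had a median difference of 0.09, with 4 separating upward. The 38 without one had a median of 0.08, with 7 separating upward, beside 7.3% of all genes.

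Other genes of mitochondrial energy metabolism were read from lists. Of 43 measured assembly factors, 2 were higher, beside 0.668% of all genes, and none lower, with a median of 0.04. TIMMDC1, a complex I assembly factor, read 3.80, 3.79 and 3.93 in WT and 4.41, 4.30 and 4.27 in CD47- EVs, a separate pair of groups, with a difference of 0.49 (SE 0.08) and a limma adjusted p of 0.0125. UQCC2, a complex III assembly factor, was at 0.42 (SE 0.08, adjusted p 0.0388 by limma). Without single arrays the adjusted p of TIMMDC1 reached 0.0595. Of 11 tricarboxylic acid cycle genes, MDH2, malate dehydrogenase, was higher at 0.40 (SE 0.08, adjusted p 0.0355 by limma), and the median was -0.02. MDH2 did not pass when any 1 array was left out, with adjusted p from 0.0709 to 0.17. With any 1 array left out, the lists held 0 or 1 called gene in place of 3, and with the replicate number as a block 1.

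None of the 73 mitochondrial ribosomal protein genes was called, with a median of 0.05 and the smallest adjusted p in MRPL9 (0.43, adjusted p 0.0698 by limma). At an unadjusted p under 0.05, 7 of the 73 lay on the higher side and 0 on the lower side, beside 5.16% and 2.87% of all genes. None of 7 electron carriers and related genes passed. Their median was -0.04, with 5 of the 7 below 0. Among them 1 separated upward and 1 downward, beside 7.3% and 5.53% of all genes. CYCS, cytochrome c itself, was at 0.40 (SE 0.12, adjusted p 0.262 by limma) with overlapping groups. None of 12 regulators of mitochondrial biogenesis passed either, and TFB2M, a mitochondrial transcription factor, had the smallest adjusted p among them (0.21, adjusted p 0.524 by limma). The median of the regulators was 0.07. At an unadjusted p under 0.05, 2 of the 7 electron carriers and related genes lay on the higher side. So did 1 of the 12 regulators, beside 5.16% of all genes. On the lower side there were 0 in both lists, beside 2.87% of all genes.

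Levels of cell markers moved as follows. The mean over the 13 T cell markers was 5.95 to 6.08 in the WT arrays and 6.15 to 6.20 in the CD47- arrays. Of the 13 markers, 4 separated upward, beside 7.3% of all genes. Their part in the results above was not tested. No gene of the B cell, myeloid, erythroid and platelet, fibroblast and epithelial, or liver marker lists was called by limma or at an unadjusted p under 0.05, and the ranges of their mean levels overlapped between groups in every list. CD47 itself was at 0.02 (SE 0.09, adjusted p 0.987 by limma), from 4.69 to 4.72 in WT and 4.58 to 4.94 in CD47- EVs.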

How the data were processed

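RNA from EVs of 3 WT and 3 CD47- samples was measured on Affymetrix HuGene-1_0-st arrays, which the label protocol once calls a mouse array although all samples are human. The deposited values are on a log2 scale and were made by the authors with RMA in Affymetrix Expression Console per the labels, with software versions not given in the sources used. For EV isolation, the labels name 2 alternative kits without saying which was used for these arrays. Scanner files were not used here, so background correction and quantile normalization could not be varied. RMA makes array distributions alike, so a shift shared by most mRNAs is not visible.

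Probe sets with 1 symbol in the platform annotation (19460 of 33297) were kept, taking the brightest per gene by the mean of 6 arrays. A 2-group model with empirical Bayes variance was fitted to all 18417 genes in limma 3.58.1 (R 4.3.3). Benjamini-Hochberg adjustment was over all of them, with a threshold of 0.05 and no filter on low values. The model was also run on simulated data with independent normal noise. Such data meet its assumptions, so that run cannot show how well the model fits these arrays. Pairs of genes were compared by an exact two-sided permutation test of their within-array difference. Promoters came from RefSeq (GRCh38.p14).

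The members and lists were chosen with earlier results of these data known. Genes were named by rule: members that passed here or in an alternative, the 4 highest and the lowest difference of each complex, the SDH and ATP5MC genes, selected core subunits, restricted isoforms as a group, and the member of each other list with the smallest p. UQCC2, COX6A2, COX5B, UQCRC1, ATP5F1D, the peripheral stalk genes and those with a second probe set were named after their values had been seen. Alternatives were the replicate block, centring on olfactory receptor genes, a further quantile normalization, an intensity trend with robust variance, array weights, a filter above the olfactory receptor median, the mean of a gene's probe sets, per-gene variance, each array left out, and members without restricted isoforms. The use of probe sets numbered on the gene's own chromosome was added after the data had been seen.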

Additional observations from a re-analysis of the deposited data

How the results depend on the processing

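No shared deviation of same-numbered arrays was seen, with correlations of 0.02, -0.02 and -0.04. These values cannot show whether same-numbered samples were collected or processed together. With the replicate block the called members were 2, all genes higher numbered 106 and the other lists of the pathway held 1 called gene in place of 3, the others being lost (MDH2 at an adjusted p of 0.06). Centring on the olfactory receptor genes raised all differences by 0.06. It gave 8 called members in place of 2 (ATP5F1B, NDUFB5, ATP5F1C, ATP5MC1, ATP5MF, COX5A, NDUFA12 and UQCRC2), 7 called genes in the other lists, 237 genes higher in all (1.29%) against 123, and medians of 0.11, 0.16, 0.12, 0.21 and 0.16 in complexes I to V. It put 67 members above 0 in place of 57 and changed the sign of 10, SDHD (to 0.035) among them. The filter above the olfactory receptor median gave 4 called members (ATP5F1B, ATP5MC1, COX5A and NDUFA12) with NDUFB5 below the filter, beside 156 of all 7249 genes left (2.15%), and medians of 0.090 and 0.23 in complexes I and IV. A further quantile normalization gave medians of 0.044 in complex I and 0.028 in complex III, and 7 genes lower in all against 3. Leaving out restricted isoforms gave 0.23 in complex IV. Per-gene variance called 0 members and 0 genes of the other lists, and 1 gene higher and 0 lower in all. Without single arrays, called members ranged from 0 (without WT replicate 3) to 2 and genes of the other lists from 0 to 1. All genes higher then numbered 53 to 96 and lower 1 to 5, and members separating upward 18 to 26 of 78, where 10.3% to 13.6% of all genes separated upward. Complex medians ranged from 0.030 to 0.066 (I), 0.042 to 0.14 (II), 0.030 to 0.088 (III), 0.089 to 0.16 (IV) and 0.088 to 0.13 (V). Signs changed in some alternative for 27 members. Without single arrays, NDUFS1 ranged from -0.22 to 0.034, NDUFV1 from -0.037 to 0.12, SDHD from -0.12 to 0.096, UQCR10 from -0.014 to 0.16, UQCR11 from -0.0085 to 0.18, UQCRB from -0.27 to 0.021 and CD47 from -0.088 to 0.091. Over all alternatives UQCRC1 ranged from -0.044 to 0.081, COX5B from -0.067 to 0.093, ATP5F1D from -0.026 to 0.088 and COX7A1 from -0.016 to 0.083. The adjusted p of ATP5F1B ranged from 3.29e-04 to 0.519 and that of NDUFB5 from 0.0019 to 0.391, both highest with per-gene variance. The sign held in every alternative for 51 of 78 members. Counting NDUFA4 and NDUFA4L2 in complex I was not run, as neither had a probe set with 1 symbol. Causes were not tested.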
